A study of Mus musculus with 12 samples.

Results

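The genes described here encode the hypoxia-inducible factors (HIFs) and the proteins that tie them to oxygen. They were chosen by name, and all 10 were found among the 13232 genes of the table: the HIF subunits *Hif1a*, *Epas1* and *Arnt*, the prolyl hydroxylases *Egln1*, *Egln2* and *Egln3*, the ubiquitin ligase subunit *Vhl*, the asparaginyl hydroxylase *Hif1an*, the ubiquitin ligase *Siah2* and the HIF antagonist *Cited2*. RNA came from bone marrow-derived macrophages of wild-type (WT) C57B6/J mice on either of 2 diets, normal (ND) or high in fat (HFD). Bone marrow-derived macrophages are grown in culture from whole marrow with the growth factor M-CSF, here at 20 ng/ml, with serum-free macrophage medium from day 4. In both groups analysed here the cells were held at 1% oxygen for 1 h on day 7, with 3 libraries per diet. The 6 normal-oxygen libraries that the labels also describe were not analysed here, so the values compare diets under hypoxia and do not show a response to hypoxia. The labels give no age or sex and do not say whether each library came from its own mouse, so p-values measure the spread between these libraries, which may be in part technical.

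HIFs are pairs of an oxygen-regulated alpha subunit (HIF-1α from *Hif1a*, HIF-2α from *Epas1*) and the stable partner ARNT. When oxygen is present, the prolyl hydroxylases (PHD1 from *Egln2*, PHD2 from *Egln1*, PHD3 from *Egln3*) mark the alpha subunits, VHL then recruits the ligase that sends them to the proteasome, and FIH (from *Hif1an*) blocks their contact with the coactivators p300 and CBP. SIAH2 promotes the loss of PHD1 and PHD3, and CITED2 competes with the alpha subunits for p300 and CBP. Most of this control acts on protein, and in macrophages HIF-1α is best known for its part in glycolysis and inflammatory activation. *Egln1*, *Egln3* and *Cited2* are themselves textbook HIF target genes.

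Estimated depth was 19046400 to 24491500 reads per library. All 10 macrophage markers examined, such as *Csf1r* and *Adgre1*, were listed, with summed normalized counts of 357194 to 405840 in ND and 353976 to 414945 in HFD. *Lyz2* made up most of each sum. Of the 10 markers 2 did not overlap between diets, against 14.5% of all genes. *Adgre1* was higher in HFD (log2 fold change 0.16, limma adjusted p 0.520). *Cd14* was lower, at 3969 to 4019 in ND and 2981 to 3678 in HFD (-0.29, limma adjusted p 0.281). None of 6 B cell, 6 dendritic cell and 7 erythroid markers was listed. Of the 6 mast cell and basophil markers 1 was listed, the receptor *Kit*, at 117 to 226 in ND and 72.4 to 104 in HFD without overlap (log2 fold change -0.88, limma adjusted p 0.284), and of the 6 T cell markers 1, *Cd4*, at 202 to 356 in ND and 98.1 to 230.0 in HFD (-0.70, limma adjusted p 0.448). The part of such cells in the results was not tested. ND replicate 3 stood apart from its own diet: on the first principal component of 10794 genes it scored 3.43, near HFD replicate 1 (1.33), whereas ND replicates 1 and 2 scored -14.0 and -13.5 and HFD replicates 2 and 3 scored 11.3 and 11.4. Values without ND replicate 3 are therefore given beside the member results that changed most when it was left out.

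For none of the 10 genes was a difference between the diets detected beyond the spread between libraries. At a limma adjusted p of 0.05, 0 of 10 passed, as did 0 of all 13232 genes (0%), and at an unadjusted p under 0.05 limma called 0 of 10, against 10.6% of all genes. The replicate values of the diets overlapped for every one of the 10, whereas they did not overlap for 14.5% of all genes. Of the 10 genes 5 were higher and 5 lower in HFD, their median log2 fold change being 0.052 against -0.0034 over all genes, and a median absolute log2 fold change of 0.13 against 0.092. The members' median log2 fold change took no stable sign: it was -0.0081 without HFD replicate 1 and 0.086, with 8 of 10 higher, without HFD replicate 3. The limma adjusted p-values ran from 0.485 for *Cited2* to 0.976 for *Arnt*. For the 8 genes other than *Epas1* and *Egln3*, the 95% intervals of the log2 fold change lay between -0.38 and 0.38, which is 0.768 to 1.30 times the ND level.

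**Figure D1:**
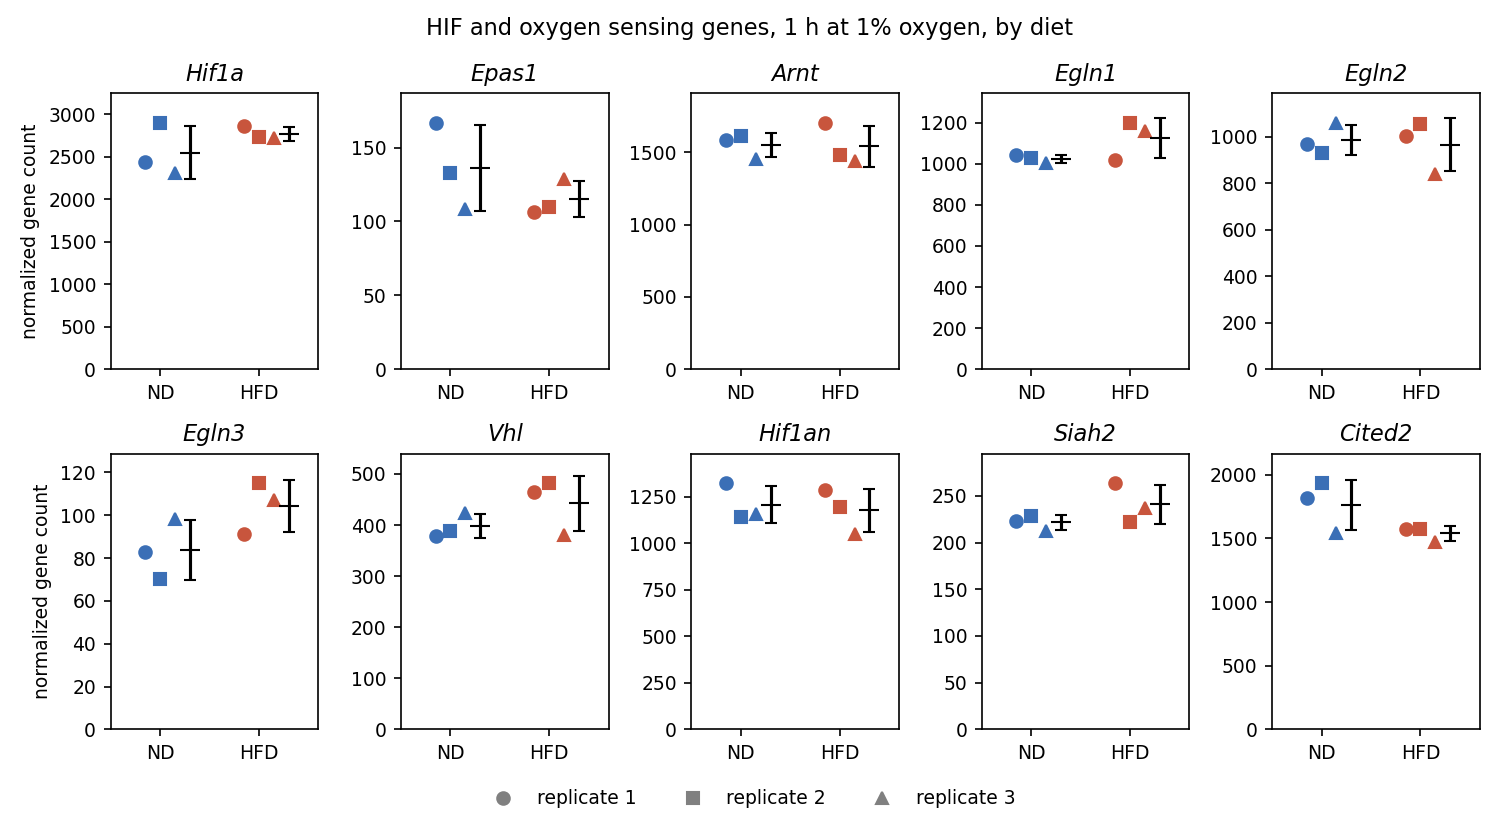
Normalized gene count (y axis, from 0) of each of the 10 genes in ND (blue) and HFD (red) libraries, with the marker shape giving the replicate and black bars the mean ± SD of 3 libraries. The diets overlap in every panel; *Cited2* has ND replicates 1 and 2 above all HFD libraries, and *Epas1* has ND replicate 1 alone at the top.

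Depth and the spread between libraries differed from gene to gene. *Hif1a* rested on 1953 to 2992 estimated reads per library, and its spread between libraries of a diet (an SD of 0.12 on the log2 scale) was 4.43 times the counting error. *Siah2* rested on 180 to 269 reads, and its spread of 0.096 was 1.00 times the counting error. *Egln3* (72 to 119 reads) and *Epas1* (92 to 167 reads) had the fewest reads and the widest spreads, 0.21 and 0.24, which were 1.36 and 1.84 times the counting error. The median gene of the table had a spread of 0.12. Such errors cover counting alone, because PCR copies of a molecule were not marked. The order of the levels per length was the following, in normalized counts per kb of exon (mean over 6 libraries). The length was that of all annotated exons of a gene joined over its transcripts, so the order depends on that choice. By counts alone, *Hif1a* was above *Cited2* in every library. *Cited2* was the most abundant, at 672, followed by *Hif1a* at 451. *Egln2* (349) and *Egln1* (299) came next and overlapped in range. *Arnt* (193), *Hif1an* (180.5) and *Vhl* (140.1) formed a group in which each overlapped with the next. *Siah2* stood at 77.1, and *Egln3* (35.3) and *Epas1* (22.5), whose ranges overlapped, were the lowest. *Arnt*, the partner that each alpha subunit needs, was thus at a lower level per kb than *Hif1a* in every library.

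Among the alpha subunits, *Hif1a* (chr12:73901375-73947530, + strand, build mm10 with GENCODE M21) had normalized counts of 2441, 2898 and 2307 in ND replicates 1 to 3 and of 2867, 2730.4 and 2717 in HFD replicates 1 to 3. ND replicate 2 was the highest library and ND replicate 3 the lowest, so the HFD values lay inside the ND range. HFD against ND gave a log2 fold change of 0.13 (SE 0.08, 95% interval -0.06 to 0.32, limma adjusted p 0.648). Leaving out ND replicate 2 gave 0.22, and leaving out ND replicate 3 gave 0.059. *Hif1a* lies wholly inside *Gm15283*, an antisense gene, and its 3′ part overlaps *Gm49321* over 9878 bases on the same strand. The strand setting of the counting is not given in the sources used here, so reads of these genes cannot be told apart from those of *Hif1a*.

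*Epas1* (chr17:86753700-86833410, + strand) had 166.6, 133.0 and 108.6 in ND and 106.7, 110.0 and 128.9 in HFD. ND replicate 1 stood above the other 5 libraries, and the remaining ND values overlapped with HFD. The log2 fold change was -0.22 (SE 0.17, 95% interval -0.60 to 0.16, limma adjusted p 0.695), with -0.066 without ND replicate 1 and -0.37 without ND replicate 3. In bulk RNA, fewer cells of a type and less RNA per cell cannot be told apart. *Epas1* is strongly expressed in endothelial cells, and 1 of 8 endothelial markers was listed, the VEGF receptor *Kdr*. *Kdr* had 171.6, 126.1 and 119.3 in ND and 74.4, 98.4 and 119.9 in HFD, with ND replicate 1 the highest and HFD replicate 1 the lowest, as for *Epas1*. The other 7 endothelial markers, *Cdh5* and *Tek* among them, were not listed. Of 8 stromal markers 3 were listed, the collagens *Col1a1*, *Col1a2* and *Col3a1*, and all 3 had a lower mean log2 value in HFD, as *Epas1* had (log2 fold changes -1.33, -1.04 and -1.45, lowest limma adjusted p 0.448, 1 at an unadjusted p under 0.05). Their summed counts overlapped, at 177 to 549 in ND and 51.8 to 337 in HFD, with the highest in ND replicate 2 and the lowest in HFD replicate 3, where *Epas1* was the highest of the HFD libraries. The part of such cells in the *Epas1* values was not tested.

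*Hif1a* made up 93.3% to 96.2% of the alpha subunit level per kb over the 6 libraries, and *Epas1* the rest: 5.36% ± 1.18 for ND against 4.21% ± 0.508 for HFD (SD, n = 3 each). The level of *Epas1* relative to *Hif1a* within a library is free of the scaling between libraries, apart from the pseudocount. On the log2 scale this ratio of counts was -3.86, -4.44 and -4.40 in ND and -4.74, -4.62 and -4.39 in HFD. The diets differed by -0.35, and HFD replicate 3 lay above ND replicates 2 and 3, so the values overlapped. An exact two-sided permutation test gave p = 0.3, where 0.1 is the smallest possible, and 0.6 after Benjamini-Hochberg adjustment over the 3 ratios tested. Without ND replicate 1 the difference was -0.17.

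*Arnt* (chr3:95434388-95497240, + strand) had 1585, 1611 and 1455 in ND and 1702, 1483 and 1437 in HFD. HFD replicate 1 was the highest library and HFD replicate 3 the lowest, so the ND values lay inside the HFD range. Between diets the log2 fold change was -0.01 (SE 0.08, 95% interval -0.19 to 0.17, limma adjusted p 0.976). Its sign turned in 4 of the 6 fits without 1 library, from 0.0050 without ND replicate 1 to 0.037 without HFD replicate 3, and it was -0.057 without ND replicate 3.

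The prolyl hydroxylases *Egln1* and *Egln3* were higher in HFD on average and *Egln2* was not. *Egln1* (chr8:124908587-124949324, - strand), which encodes the main oxygen sensor of this family, had 1043, 1029.6 and 1003 in ND and 1017, 1199.5 and 1161 in HFD. HFD replicates 2 and 3 lay above all ND libraries, and HFD replicate 1 lay within the narrow ND range. The log2 fold change was 0.13 (SE 0.08, 95% interval -0.04 to 0.30, limma adjusted p 0.594). It was 0.20 without HFD replicate 1 and 0.085 without HFD replicate 2. *Egln3* (chr12:54178981-54203860, - strand) had 82.8, 70.4 and 98.0 in ND and 91.0, 114.8 and 107.2 in HFD. The same HFD replicates 2 and 3 lay above all ND libraries, and HFD replicate 1 lay below ND replicate 3. The log2 fold change of 0.32 had the widest upper bound of the 10 genes (SE 0.17, 95% interval -0.06 to 0.70, limma adjusted p 0.552), and leaving out ND replicate 3 or 2 gave 0.44 or 0.20. *Egln3* is also abundant in neutrophils. Of 10 neutrophil markers 6 were listed, and all 6 had a higher mean log2 value in HFD (median log2 fold change 0.30, 0 at a limma adjusted p under 0.05 and 1 at an unadjusted one). That 1 was *Mmp8*, neutrophil collagenase, at 443, 463 and 452 in ND and 707, 1032 and 834 in HFD without overlap (log2 fold change 0.90, limma adjusted p 0.113; named after its values were seen), in the same order within HFD as *Egln3* but not within ND. The summed counts were 1712 to 2455 in ND and 2109 to 3430 in HFD, the last in HFD replicate 2, where *Egln3* was also highest. The highest ND sum (2455) was in ND replicate 2, where *Egln3* was the lowest of the 6 libraries, and the lowest HFD sum (2109) was in HFD replicate 3, which had the second highest *Egln3*. The markers *Elane*, *Mpo*, *Camp* and *Retnlg* were not listed. The part of neutrophil-lineage cells in the *Egln3* values was not tested.

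*Egln2* (chr7:27158658-27166802, - strand) had 969.9, 929.9 and 1059 in ND and 1004, 1055 and 839 in HFD. ND replicate 3 and HFD replicate 2 were level at the top and HFD replicate 3 was the lowest. The log2 fold change was -0.03 (SE 0.09, 95% interval -0.25 to 0.18, limma adjusted p 0.928), and its sign turned without ND replicate 3 (0.018) and without HFD replicate 3 (0.064). Per kb of exon, *Egln2* made up 52.6% ± 1.64 of the summed hydroxylase level in ND and 49.4% ± 3.97 in HFD. *Egln1* made up 42.7% ± 2.21 and 45.0% ± 3.48, and *Egln3* 4.69% ± 0.603 and 5.62% ± 0.514 (SD, n = 3 libraries each). Per kb, *Egln2* was the larger of the former pair in ND and in HFD replicates 1 and 2, and *Egln1* in HFD replicate 3 (48.7% against 45.2%). By counts alone, *Egln1* was the larger in every library but ND replicate 3. The log2 ratio of *Egln3* to *Egln1* counts was -3.64, -3.85 and -3.34 in ND and -3.47, -3.37 and -3.43 in HFD, a difference of 0.19 with ND values on both sides of HFD (exact two-sided permutation p = 0.4, adjusted 0.6). Leaving out ND replicate 3 gave 0.32, and leaving out ND replicate 2 gave 0.068. The log2 ratio of *Egln1* to *Hif1a* differed by 0.0046 (exact two-sided permutation p = 0.9, adjusted 0.9), and its sign depended on which library was left out; leaving out ND replicate 3 gave 0.057.

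**Figure D2:**
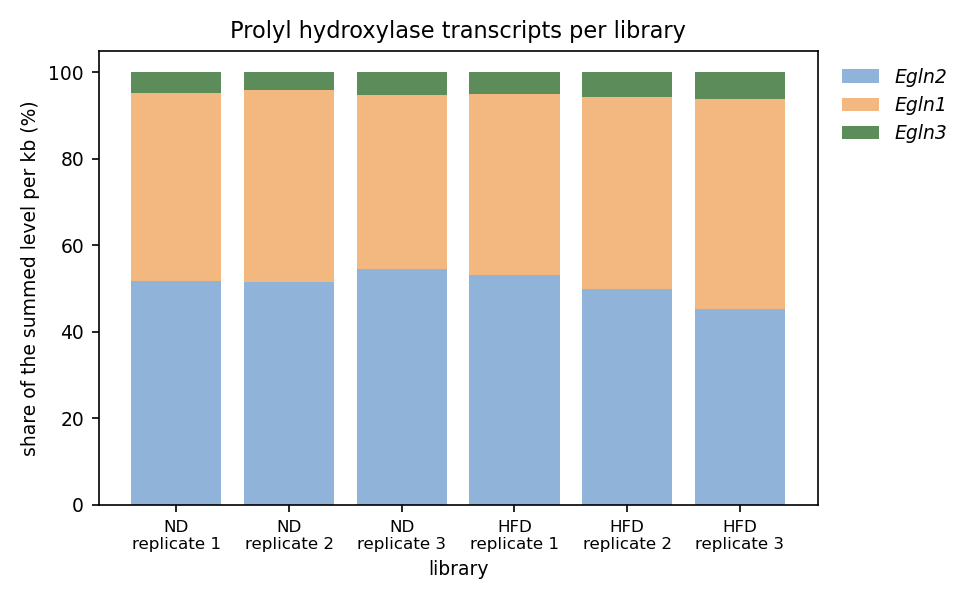
Share (y axis, percent) of *Egln2* (blue, bottom), *Egln1* (orange) and *Egln3* (green, top) in their summed level per kb of exon, for each of the 6 libraries on the x axis. *Egln3* takes 4.10% to 6.07% in the 6 libraries, and HFD replicate 3 is the library where *Egln1* exceeds *Egln2*.

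*Vhl* (chr6:113623959-113631633, + strand), the substrate receptor of the ligase that recognises hydroxylated alpha subunits, had 379, 389 and 424 in ND and 464, 482 and 381 in HFD. HFD replicates 1 and 2 lay above all ND libraries, while HFD replicate 3 was level with the lowest ND library. A log2 fold change of 0.15 (SE 0.10, 95% interval -0.08 to 0.38, limma adjusted p 0.661) resulted, with 0.25 without HFD replicate 3 and 0.083 without HFD replicate 2. *Hif1an* (chr19:44562850-44576274, + strand) had 1322, 1142 and 1158 in ND and 1284, 1196 and 1052 in HFD. ND replicate 1 and HFD replicate 1 were the highest, and only HFD replicate 3 lay outside the ND range. Its log2 fold change was -0.04 (SE 0.09, 95% interval -0.24 to 0.16, limma adjusted p 0.912), and its sign turned without ND replicate 1 (0.028) and without HFD replicate 3 (0.040); without ND replicate 3 it was -0.067.

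*Siah2* (chr3:58674938-58692400, - strand) had 224, 229 and 213 in ND and 263, 222 and 237 in HFD. HFD replicates 1 and 3 lay above all ND libraries and HFD replicate 2 did not. Its log2 fold change was 0.12 (SE 0.10, 95% interval -0.11 to 0.34, limma adjusted p 0.734), with 0.050 without HFD replicate 1 and 0.086 without ND replicate 3.

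*Cited2* (chr10:17723218-17725674, + strand), a gene that HIF itself induces and whose product limits HIF activity, came nearest to a difference. It had 1814, 1932 and 1543 in ND and 1576, 1573 and 1475 in HFD. All 3 HFD libraries lay below ND replicates 1 and 2, and the overlap came from ND replicate 3 alone. The log2 fold change was -0.19 (SE 0.09, 95% interval -0.38 to 0.0038, limma unadjusted p 0.0538, limma adjusted p 0.485). Without ND replicate 3 the diets separated, at -0.28 with a limma adjusted p of 0.0722, which does not pass, and without ND replicate 2 the value was -0.12. *Cited2* (lower) and *Egln1* and *Egln3* (higher), all HIF targets, differed in direction, none past the threshold.

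**Figure D3:**
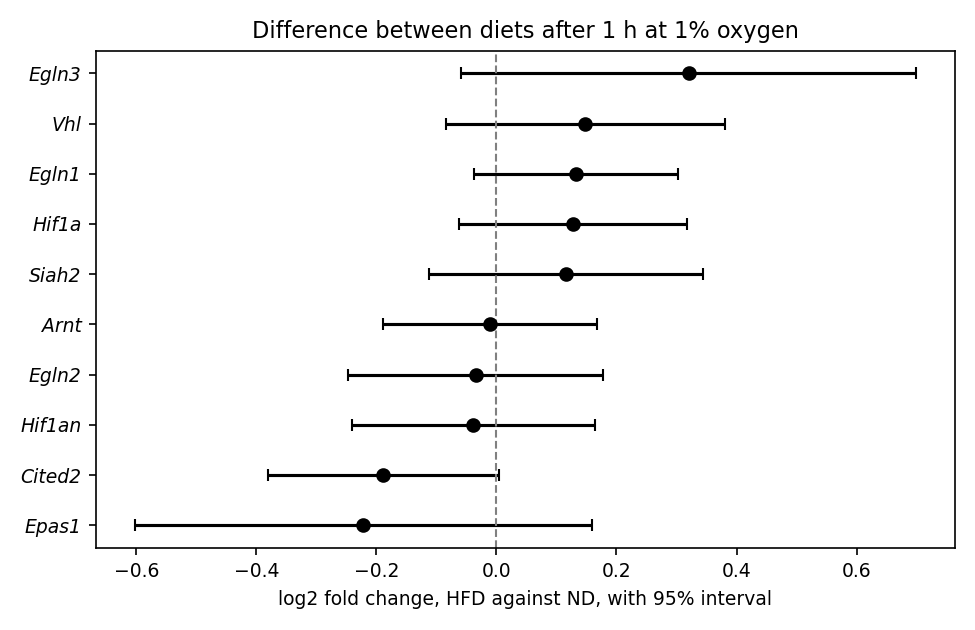
Log2 fold change of HFD against ND (x axis) for each of the 10 genes, as points with limma's 95% interval as bars and a dashed line at no difference. Every interval reaches 0, that of *Cited2* by 0.0038, and those of *Epas1* and *Egln3* are the widest.

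The number of genes called depends on the weight given to libraries. Limma array weights were 3.09 for HFD replicate 2 and 1.91 for ND replicate 1, and 0.44 to 0.89 for the rest. The weighted fit thus rests mostly on 1 library per diet. With limma array weights, which give less weight to libraries that lie far from the fit, 0 of the 10 genes passed a limma adjusted p of 0.05, against 8.56% of all genes, and 5 of 10 had an unadjusted p under 0.05, against 27.6%. These were *Egln1*, *Egln3* and *Vhl*, which were higher in HFD, and *Epas1* and *Cited2*, which were lower. Without ND replicate 3, 0 of 10 passed the adjusted threshold, against 1.76% of all genes, and 3 of 10 (*Cited2*, *Egln3* and *Epas1*) had an unadjusted p under 0.05, against 17.5%. The smallest limma adjusted p of any of the 10 genes over all alternatives run was 0.0639, for *Cited2* with array weights.

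The libraries did not order the genes alike. HFD replicate 2 was the highest library for 3 of the 10 genes (*Egln1*, *Egln3* and *Vhl*) and the lowest for none. HFD replicate 3 was the lowest for 4 (*Arnt*, *Egln2*, *Hif1an* and *Cited2*), and ND replicate 3 was the lowest for 3 (*Hif1a*, *Egln1* and *Siah2*). On the log2 scale the largest departures from a gene's mean were 0.42 for *Epas1* in ND replicate 1 and -0.39 for *Egln3* in ND replicate 2, and those are the scarcest genes. *Hif1a* and *Cited2* varied more among ND than among HFD libraries (SD 310 against 83.2 and 199 against 57.6), whereas *Egln1* varied more among HFD libraries (20.5 against 96.2); the difference in spread was not tested.

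**Figure D4:**
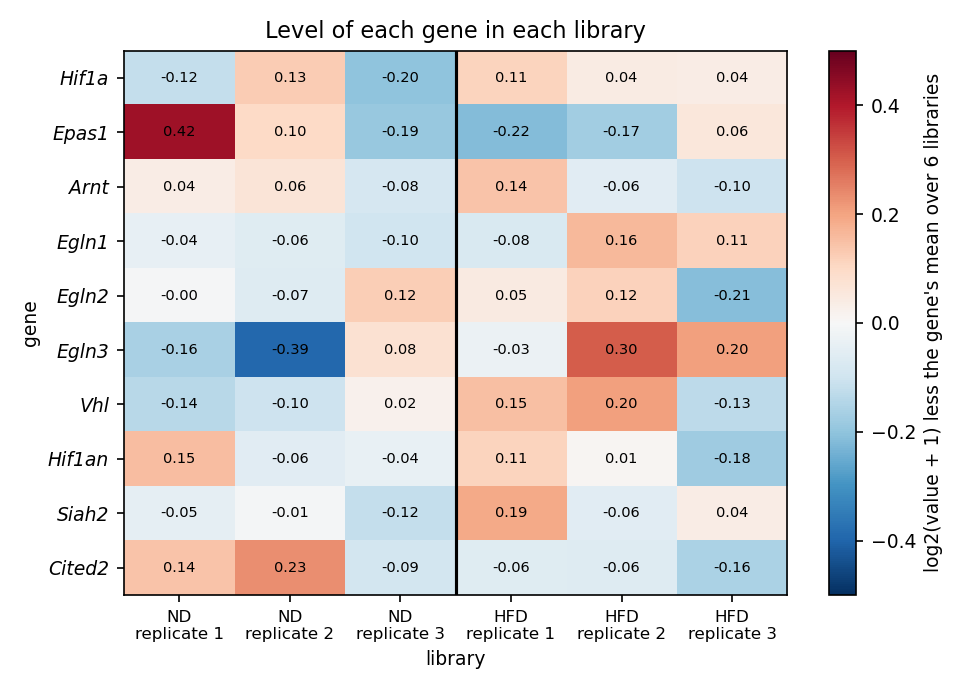
Each cell gives a gene's log2(value + 1) in 1 library less its mean over the 6 libraries, red for above and blue for below, with ND libraries left of the black line and HFD libraries right of it. No library is red or blue for all 10 genes, and *Cited2* is the row in which all 3 HFD libraries lie below the gene's mean.

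The promoters of *Cited2*, *Egln3* and *Egln1* are shown because these genes had the smallest p-values of the 10 and are known HIF targets. Each line gives the 250 bases before the RefSeq transcription start (GRCm38.p6), 5′ to 3′ on the gene's strand, with the core letters of the hypoxia response element (ACGTG or GCGTG, on either strand) in capitals. The windows are chr10:17722978-17723227 (+ strand) for *Cited2*, chr12:54203875-54204124 (- strand) for *Egln3* and chr8:124949255-124949504 (- strand) for *Egln1*, and GENCODE M21 places the starts of *Cited2* and *Egln1* inside them.
Cited2: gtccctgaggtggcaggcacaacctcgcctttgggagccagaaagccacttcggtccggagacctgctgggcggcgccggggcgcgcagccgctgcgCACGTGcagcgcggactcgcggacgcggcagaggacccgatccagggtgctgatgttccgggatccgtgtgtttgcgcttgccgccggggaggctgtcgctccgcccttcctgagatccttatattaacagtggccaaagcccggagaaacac
Egln3: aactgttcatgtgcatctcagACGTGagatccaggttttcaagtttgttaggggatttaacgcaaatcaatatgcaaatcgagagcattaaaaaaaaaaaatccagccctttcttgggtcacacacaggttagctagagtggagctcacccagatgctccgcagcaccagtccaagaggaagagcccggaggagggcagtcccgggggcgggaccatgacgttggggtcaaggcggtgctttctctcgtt
Egln1: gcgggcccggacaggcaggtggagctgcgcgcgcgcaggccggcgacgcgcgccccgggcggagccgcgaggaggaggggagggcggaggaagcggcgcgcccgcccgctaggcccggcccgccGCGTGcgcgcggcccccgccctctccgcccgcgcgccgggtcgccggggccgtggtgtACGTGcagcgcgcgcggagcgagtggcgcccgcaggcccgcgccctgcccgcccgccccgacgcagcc
*Cited2* holds ACGTG on both strands as the palindrome CACGTG, which is also an E-box, from base -153 to -148. *Egln3* holds 1 ACGTG, from -229 to -225, and *Egln1* holds GCGTG from -126 to -122 and ACGTG from -68 to -64. Of the 10 genes 8 had a window in the RefSeq table, in 9 windows because *Egln2* has a pair, and 7 of the 9 held at least 1 core, against 38.6% of 32851 windows of the same length. ACGTG was in 5 of 9, against 16.6%, and GCGTG in 4 of 9, against 28.2%. The member windows were 48.0% to 86.0% G or C, against a median of 52.4%, and among all windows with at least the lowest of these shares 48.8% held a core. *Hif1a*, *Arnt* and *Egln2* also held cores, and none was found in the windows of *Vhl* and *Hif1an*. A match describes letters only and is not a binding site.

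The other genes of the pathway were grouped by role, and with all 6 libraries at equal weight no list member passed a limma adjusted p of 0.05. Counts at an unadjusted p under 0.05 are to be read against the share of all genes called in the same fit. That share was 10.6% with all libraries, 9.50% with limma without the trend, 5.29%, 8.01% and 17.5% without ND replicate 1, 2 or 3, and 12.6%, 5.49% and 9.17% without HFD replicate 1, 2 or 3. Of 12 further HIF and PAS-domain genes 6 were listed, 4 higher and 2 lower in HFD (median log2 fold change 0.15), and 1 had an unadjusted p under 0.05. That gene was *Ahrr*, the repressor of the aryl hydrocarbon receptor, at 816 ± 64.0 in ND against 958 ± 61.7 in HFD (SD over 3 libraries; log2 fold change 0.23, limma adjusted p 0.367), with all HFD libraries above all ND libraries. That unadjusted call was lost without ND replicate 3, HFD replicate 1 or HFD replicate 2. The list's median ran from 0.026 without HFD replicate 3, with 3 of 6 higher, to 0.16 without HFD replicate 2; leaving out ND replicate 3 gave 0.085. With array weights *Ahrr* passed the adjusted threshold (0.23, limma adjusted p 0.0474). The clock subunit *Arntl*, another PAS-domain protein, was at 336 ± 24.4 and 299 ± 9.45 with no overlap (log2 fold change -0.17, limma adjusted p 0.568). All 10 genes of the VHL ligase complex and neddylation list were in the table, 9 higher and 1 lower (median 0.075), with 0 at an unadjusted p under 0.05, and 0 to 2 without 1 library, 2 of 10 without ND replicate 2. This median ran from 0.022 without HFD replicate 3, with 7 of 10 higher, to 0.12 without HFD replicate 1. *Eloc*, the elongin C subunit that binds VHL, was at 670.0 ± 26.5 and 726 ± 20.5 with no overlap (log2 fold change 0.12, limma adjusted p 0.606).

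Of 21 genes that act on the turnover or stability of HIF, PHD and FIH proteins 20 were listed, 8 higher and 12 lower (median -0.0052). One had an unadjusted p under 0.05, the HSP90 cochaperone p23 (*Ptges3*), at 2287 ± 218 in ND and 2643 ± 148 in HFD with overlap (log2 fold change 0.21, limma adjusted p 0.396). The list had 0 unadjusted calls without ND replicate 1 or 2 or HFD replicate 2 or 3, and 0 with limma without the trend. Without HFD replicate 1 it had 3 of 20 and without ND replicate 3 it had 4 of 20, both near the shares of all genes in those fits. The median ran from -0.013 without HFD replicate 2 to 0.025 without ND replicate 3, with 12 higher and 8 lower in the latter. *Ptges3* passed the adjusted threshold with array weights (0.27, limma adjusted p 0.0250). *Hsp90ab1* and *Hsp90aa1*, which encode the chaperone that holds HIF-1α, had log2 fold changes of 0.14 and 0.18 (limma adjusted p 0.608 and 0.626). Of 12 coactivator and CITED genes 10 were listed. *Cited1* and *Cited4* were not, so these values hold no CITED gene. The 10 went 5 in each direction (median -0.0015), and 1 had an unadjusted p under 0.05. It was the pyruvate kinase *Pkm*, a glycolytic enzyme reported as a HIF-1α coactivator, at 23370 ± 3713 and 29964 ± 2094 (log2 fold change 0.37, limma adjusted p 0.307). Its ND replicate 3 (27655) lay with HFD replicate 1 (27624), above ND replicates 1 and 2 (21357 and 21098). *Pkm* passed the adjusted threshold without ND replicate 3 (0.49, limma adjusted p 0.0202) and with array weights (0.48, limma adjusted p 0.00995). The balance of the list turned with the library left out, from 3 of 10 higher without ND replicate 3 (median -0.090, 3 unadjusted calls) to 8 of 10 higher without ND replicate 2 (median 0.035, 1 unadjusted call), and the highest median was 0.038, without HFD replicate 1. The 13 genes of transcription and translation inputs to HIF-1α, such as *Rheb* and *Stat3*, were all listed, 8 higher and 5 lower (median 0.014), with 0 at an unadjusted p under 0.05. This balance also turned, from 6 of 13 higher without ND replicate 3 (median -0.0019, 1 unadjusted call) to 11 of 13 higher without ND replicate 1 (median 0.014, 0 unadjusted calls), and the highest median was 0.032, without HFD replicate 1.

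The last list holds HIF target genes, and whether HIF caused their differences was not tested. Of 25 such genes 24 were listed, 17 higher and 7 lower in HFD, and the median log2 fold change was 0.14. Limma called 8 of 24 higher at an unadjusted p under 0.05, against 5.40% of all genes, and 1 lower, against 5.18%, and 0 passed the adjusted threshold. This list shares genes with one whose direction in these libraries was already known, so its counts are not independent evidence. *Ero1l*, an oxidase of the endoplasmic reticulum, was at 1313 ± 58.8 in ND and 1643 ± 93.4 in HFD (log2 fold change 0.32, limma adjusted p 0.196), and the collagen prolyl hydroxylase subunits *P4ha1* (1774 ± 163 and 2123 ± 157, 0.26, 0.321) and *P4ha2* (80.4 ± 16.5 and 117.5 ± 1.13, 0.56, 0.318) also had no overlap between diets. The mitochondrial adenylate kinase *Ak4* was at 82.8 ± 17.0 and 135.1 ± 33.3 with overlap (0.69, limma adjusted p 0.319). Some other targets differed less or were lower, such as *Vegfa* (0.10), *Bnip3* (0.084), *Kdm3a* (-0.10) and *Ddit4* (-0.17), named after their values were seen. Without ND replicate 3, 4 of 24 targets passed the limma adjusted threshold, against 1.76% of all genes. These were the glucose transporter *Slc2a1* and the glycolytic genes *Pgk1*, *Ldha* and *Aldoa*, all higher in HFD and named after their values were seen. With array weights 10 targets passed, against 8.56%. Of those 10, 9 were higher and 1, *Ndrg1*, was lower in HFD (-0.36, limma adjusted p 0.0203; named after its value was seen). The unadjusted calls in either direction ran from 3 of 24 without ND replicate 1 to 12 of 24 without ND replicate 3, with 5 of 24 without ND replicate 2, and the median from 0.096 to 0.19. The difference between the target list and the HIF machinery was not tested.

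**Figure D5:**
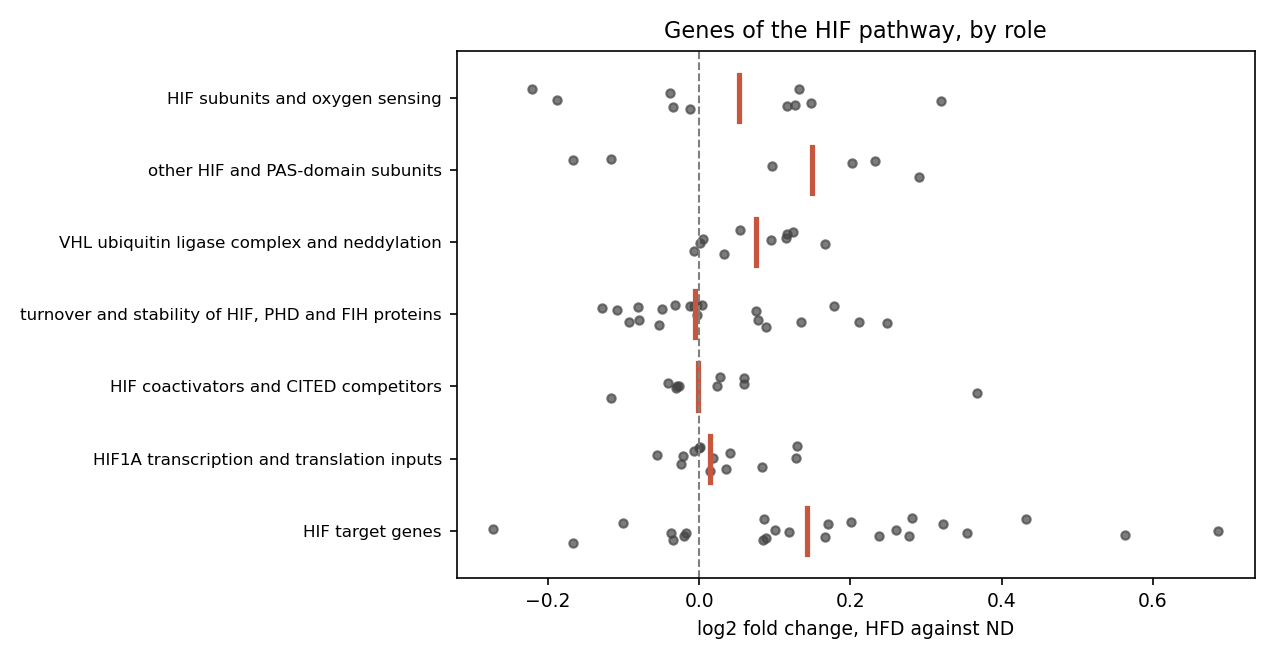
Log2 fold change of HFD against ND (x axis) for each gene in the table, as grey points, in 7 lists on the y axis, with the list's median as a red bar and points spread vertically only for visibility. The medians run from -0.0052 to 0.15, and the HIF target genes extend to 0.69.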

How the data were processed

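RNA of bone marrow-derived macrophages was sequenced as single reads of 75 bases from stranded, ribosome-depleted libraries, per the labels' protocols. Per the submitters' processing notes, STAR, Partek and the mm10 build were used; versions, annotation, strand setting and filters are not given in the sources used here. The deposited signal holds estimated gene counts that the authors scaled by 1 factor per library, as read from the values: 57.1% to 58.4% of values between 5 and 1000 were whole multiples (within 0.02 of a read) of 1 step per library. Column sums divided by that step gave the depths. Because the rest were fractional, no count test was run, and the fallback of the design, limma, was used. NC in a column's name was read as the normal diet, and its number as the replicate.

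The 3 HFD and 3 ND libraries were compared on log2(value + 1) with limma 3.58.1 under R 4.3.3 (two-sided moderated test, variance trended on the mean), with Benjamini-Hochberg adjustment over all 13232 genes and a threshold of 0.05. A filter at a mean of 1 removed no gene. Fold changes on this scale understate changes of low genes. In 10 simulations of this comparison with 200 of 13232 genes changed, limma called 87.2% of those moved by 1 on the log2 scale and 98.3% of those moved by 2. The simulated noise was independent between genes, with no departure shared by the genes of a library such as that of ND replicate 3. Changes below 1 were not simulated, so these shares do not tell how often differences as small as those of the 10 genes would be called. Positions and exon lengths are from GENCODE M21 (GRCm38, the assembly of mm10), and promoter sequences from RefSeq. Genes named were all 10 described and, of each pathway list, up to 4 with the smallest p. *Kdr*, *Cdh5*, *Tek*, *Kit*, *Cd4* and the unlisted neutrophil markers were named after their values were seen. So were *Cd14*, *Lyz2*, *Cited1*, *Cited4* and the HIF targets marked as such. The genes and lists were chosen with earlier results of these data known. Over all genes the replicate numbers showed no pairing of the libraries: deviations from the group means in libraries of 1 number had correlations of -0.0086, -0.037 and -0.00069. Whether a shared batch acted on some genes was not tested.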

Additional observations from a re-analysis of the deposited data

How the results depend on the processing

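Of 159 values of the 10 genes under alternatives, 150 kept their direction and none came to pass the threshold, with limma adjusted p-values from 0.0639 to 0.994; the 9 that turned belong to *Arnt*, *Egln2* and *Hif1an*, whose differences were near 0. Without 1 library, *Arnt* (-0.011) ran from -0.085 to 0.037, *Egln2* (-0.035) from -0.10 to 0.064 and *Hif1an* (-0.038) from -0.10 to 0.040, and *Egln2* was 0.066 with array weights. The *Egln1* to *Hif1a* ratio (0.0046) ran from -0.088 to 0.10. The count of genes past the limma adjusted threshold (0; 1401 unadjusted) was 1133 with array weights and 0 to 233 without 1 library, 233 without ND replicate 3. The number of the 10 genes at an unadjusted p under 0.05 (0) was counted after seeing the data. It was 1 after scaling to the column total and 1 after quantile normalization (*Cited2* each). Over all genes those fits called 1390 and 1386 of 13232, so 1 of 10 is near the share of all genes. With array weights the number was 5, and without 1 library it was 0 to 3, 3 without ND replicate 3. Adding the replicate number as a block (replicate block) gave 31 genes past the adjusted threshold. At an unadjusted p under 0.05 the block fit called 1506 of 13232 genes and 1 of the 10 (*Cited2*), near the share of all genes. Because the numbers showed no pairing over all genes, the main fit has no block. The cause of these changes was not tested. A pseudocount of 0.1 or 5, the filters and limma without the trend changed no call among the 10 genes. Over all genes limma without the trend gave 1257 unadjusted calls, and HIF targets higher in HFD went from 8 to 7 under it, a minimum mean of 100 (1 fewer listed) and quantile normalization. *Egln3* had no value at a minimum mean of 100, where the median of the other 9 genes was -0.011 against 0.052 for all 10. DESeq2 needs counts and was not run. Counting error alone was 0.15 on the log2 scale for *Egln3*, 0.13 for *Epas1* and 0.095 for *Siah2*, against 0.028 for *Hif1a*.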
